A study of Homo sapiens with 4 samples.

Results

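The genes described here lie on the short arm of human chromosome 7 (7p), in the stretch that runs from PDGFA near the telomere to OSBPL3. They were chosen by symbol from a list of 54 genes of that stretch, because they read lower together in the arrays labelled H1.3 than in the vector arrays. Of the 54, 50 had a transcript cluster (the array's set of probes for 1 transcript) of their own, out of 18417 genes measured that way. TOMM7 was measured only on a cluster shared with C4orf46, and MAFK, AIMP2 and KDELR2 were not analysed here. Since the difference between the groups chose the list, the differences below are a description, and no test is made of the list.

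The cells were OVCAR-3, an established line of ovarian epithelial cancer cells. In 1 group they overexpressed human H1.3, per the labels (2 arrays), and in the other they carried vectors lacking H1.3 (2 arrays). All were grown in RPMI-1640 medium with fetal bovine serum, penicillin and streptomycin. The labels call the replicates biological, but do not say whether they came from separate transfections, cultures or clones, nor what the (H) after H1.3 in the array titles means, so an SE or a limma p measures the spread between these arrays only, which may be technical. H1-3, the gene for H1.3, read 7.47 and 7.69 in the arrays labelled H1.3, against 8.65 and 7.88 in the vector arrays (log2 values), which goes against the label. The difference was -0.69 and did not pass limma (adjusted p 0.319), and each direction below therefore refers to the arrays labelled H1.3. The 9 epithelial and ovarian carcinoma markers checked, EPCAM, keratins and PAX8 among them, all lay at or above 6.84, the median level of the annotated clusters. Of 11 measured markers of leukocytes, fibroblasts and endothelium, 1 did, the collagen gene COL1A1. Between the groups (arrays labelled H1.3 minus vector arrays), EPCAM, MSLN and KRT18 differed by -0.57, -0.49 and -0.29, and PAX8 by 0.13. The groups did not overlap for these genes, but did for the other epithelial markers. The log2 levels of the epithelial markers summed to 98.4 and 98.8 in the arrays labelled H1.3, against 99.4 and 100.9 in the vector arrays. The same sums were 14.4 and 14.7 against 14.3 and 14.3 for leukocyte markers, 25.6 and 26.1 against 25.4 and 25.7 for fibroblast markers, and 15.1 and 15.5 against 15.2 and 15.3 for endothelial markers. Their part in the results was not tested.

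Linker histones such as H1.3 bind the nucleosome where DNA enters and leaves it, and help to compact chromatin. Neighbouring genes on a chromosome arm usually have unrelated products, but they share the arm's DNA copy number and lie in common domains of chromatin, neither of which was measured here. The members range from the growth factor gene PDGFA and the small GTPase gene RAC1 to the cytoskeletal actin gene ACTB, the mismatch repair gene PMS2, the aryl hydrocarbon receptor gene AHR and GPNMB, whose product is a glycosylated protein of melanosomes and lysosomes. In an extract of many cells, fewer cells with a transcript and less transcript per cell cannot be told apart.

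The promoters of GPNMB and of the members nearest to it on each side, KLHL7 and IGF2BP3, are shown. The reason is that GPNMB moved against most of the members near it, though IGF2BP3 was slightly higher too. That of FAM221A is shown because its fall was the largest of the list, a choice made after its value was seen. Each runs from 250 bases before to 50 bases after an annotated gene start, on the strand of the gene, and comes from RefSeq (GRCh38.p14). The intervals are chr7:23246525-23246824 on the plus strand for GPNMB, chr7:23105535-23105834 on the plus strand for the first of the KLHL7 promoters, chr7:23470442-23470741 on the minus strand for IGF2BP3 and chr7:23679949-23680248 on the plus strand for FAM221A. Capitals mark matches, on either strand, to the E-box CACGTG, to the M-box TCATGTGA, which the MITF and TFE family of transcription factors binds, or to the TATA box TATAAA. None of the marked matches overlap.
GPNMB: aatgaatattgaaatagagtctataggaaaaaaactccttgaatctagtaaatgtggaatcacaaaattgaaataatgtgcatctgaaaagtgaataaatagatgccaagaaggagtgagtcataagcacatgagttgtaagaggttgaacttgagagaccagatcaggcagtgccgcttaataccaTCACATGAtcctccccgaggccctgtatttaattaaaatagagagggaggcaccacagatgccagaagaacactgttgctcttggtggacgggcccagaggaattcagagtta
KLHL7: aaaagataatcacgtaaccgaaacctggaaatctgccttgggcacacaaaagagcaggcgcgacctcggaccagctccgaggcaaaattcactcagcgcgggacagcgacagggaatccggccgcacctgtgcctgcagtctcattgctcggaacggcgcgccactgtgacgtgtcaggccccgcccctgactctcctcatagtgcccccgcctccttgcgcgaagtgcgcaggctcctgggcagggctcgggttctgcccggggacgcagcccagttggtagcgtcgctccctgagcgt
IGF2BP3: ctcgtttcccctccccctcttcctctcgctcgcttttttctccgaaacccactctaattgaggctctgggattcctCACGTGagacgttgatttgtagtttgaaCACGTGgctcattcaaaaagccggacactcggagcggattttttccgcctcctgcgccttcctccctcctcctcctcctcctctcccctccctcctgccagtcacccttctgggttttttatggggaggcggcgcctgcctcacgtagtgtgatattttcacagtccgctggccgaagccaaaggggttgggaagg
FAM221A: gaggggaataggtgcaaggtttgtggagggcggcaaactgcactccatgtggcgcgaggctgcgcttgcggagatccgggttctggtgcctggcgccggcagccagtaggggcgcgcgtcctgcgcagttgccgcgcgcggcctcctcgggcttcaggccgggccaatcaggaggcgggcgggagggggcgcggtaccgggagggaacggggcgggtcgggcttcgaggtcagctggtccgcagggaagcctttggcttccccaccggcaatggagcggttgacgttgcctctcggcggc

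The GPNMB window held 1 M-box, which began 63 bases before the annotated start, and 3 CpG dinucleotides. That of IGF2BP3 held 2 E-boxes and 17 CpG dinucleotides. Those shown for KLHL7 and FAM221A held 27 and 33 CpG dinucleotides and none of the 3 motifs. The other KLHL7 promoter, not shown, held 11 CpG dinucleotides and none of the 3 motifs. Among all 35116 promoters of the table, the median was 14 CpG dinucleotides, and 1.00% held the M-box, 7.26% the E-box and 11.5% the TATA box. The table had 67 promoters for 45 members, with a median of 24 CpG dinucleotides. Of these, 1 held the M-box, 8 the E-box and 4 the TATA box. A match is a run of letters and does not show that a factor is bound there.

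Across the list, 40 of the 50 members were lower and 10 higher in the arrays labelled H1.3, while 45.5% of all genes were lower. The median log2 difference (arrays labelled H1.3 minus vector arrays) was -0.29 for the members and 0.02 for all genes. Both arrays labelled H1.3 lay below both vector arrays for 33 members, beside 19.3% of all genes, and above them for 7 members, beside 21.6%. For 29 members the difference was below 0 and larger than the gap between replicates in either group, beside 13.7% of all genes. FAM221A passed the limma test as lower, as did 0.277% of all genes, and GPNMB passed as higher, as did 0.217%. At an adjusted p under 0.1, CDCA7L and RAPGEF5 passed as lower too, beside 0.842% of all genes, and GPNMB alone as higher, beside 0.624%. Most single members differed by amounts that limma, with 2 arrays a group, did not call. The common direction of the list is also what chose it.

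**Figure D1:**
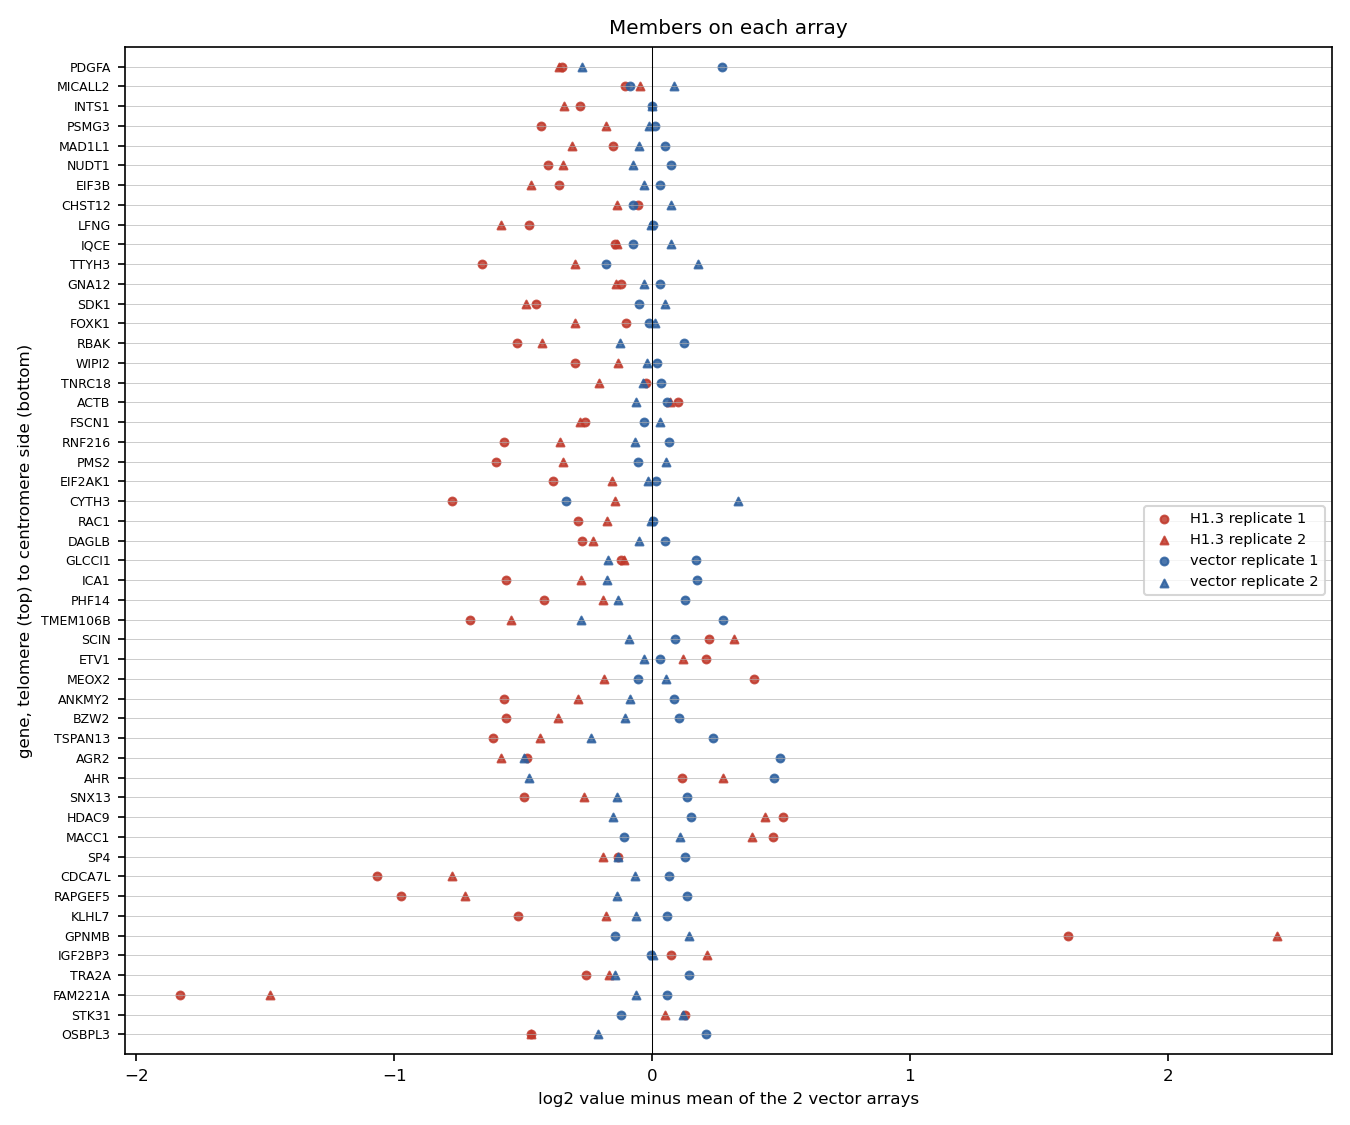
Log2 value of each of the 50 members on each array, minus the mean of the vector arrays, with genes in order from the telomere side (top). Red points are the arrays labelled H1.3 and blue points the vector arrays. For 33 members both red points lie left of both blue points, and for 7 members, GPNMB the farthest, both lie right of them.

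The 4 pairs of arrays, each made of an array labelled H1.3 and a vector array, all gave a median below 0. For replicate 1 of H1.3 the median difference of the members was -0.40 against vector replicate 1 and -0.28 against vector replicate 2. With replicate 2 of H1.3 it was -0.29 against vector replicate 1 and -0.18 against vector replicate 2. Over all genes the medians of the same pairs ran from -0.01 to 0.04. Between 36 and 41 of the 50 members were lower in each pair.

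Replicates of a group also differed along the list, by less than the groups did. The median of replicate 2 minus replicate 1 was 0.08 for the members in the arrays labelled H1.3 and -0.10 in the vector arrays, against -0.02 and 0.00 for all genes. Vector replicate 1 thus read highest and H1.3 replicate 1 lowest for the list. When 1 array was left out, the median ran from -0.33 without H1.3 replicate 2 to -0.22 without H1.3 replicate 1, and 38 members stayed below 0 in each of these fits. Single members were less steady: 30 of the 50 differences moved by more than 1.5 times, and 5 changed sign (MICALL2, GLCCI1, MEOX2, AHR and STK31).

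**Figure D2:**
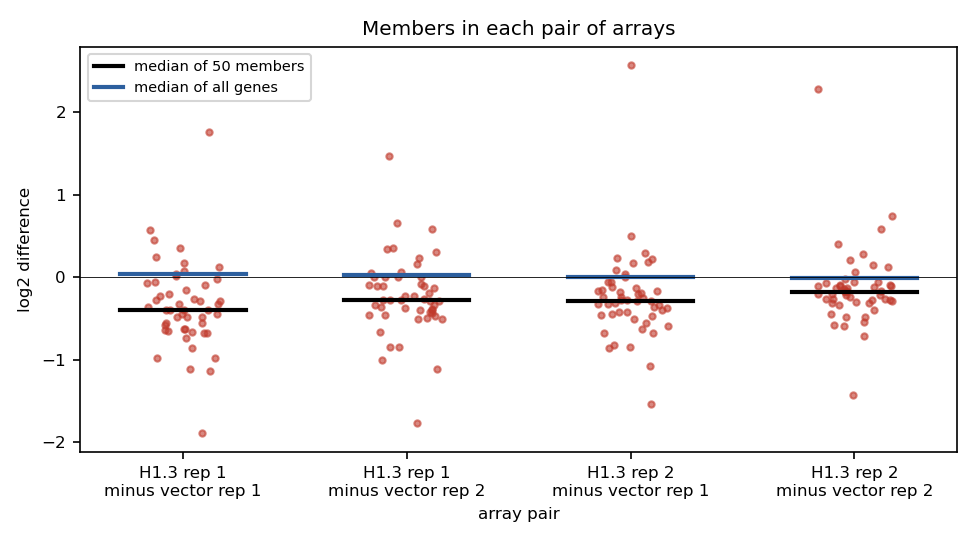
Log2 difference of each member (red points) in each of the 4 pairs of an array labelled H1.3 and a vector array, with the median of the 50 members (black) and of all genes (blue). The member medians run from -0.40 to -0.18 and the medians of all genes from -0.01 to 0.04. The highest point of each pair is GPNMB and the lowest FAM221A.

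Among the members with roles in signalling, 9 of 10 were lower, with a median difference of -0.26. RAPGEF5, an exchange factor that activates Rap GTPases, read 6.43 and 6.68 in the arrays labelled H1.3, against 7.54 and 7.27 in the vector arrays. Its groups lay far apart, with a difference of -0.85 ± 0.15 (SE) that did not pass (limma adjusted p 0.0798). LFNG, a glycosyltransferase that modifies Notch receptors, read 7.22 and 7.11 against 7.70 and 7.69, a difference of -0.53 ± 0.12. Replicates of LFNG were nearly equal within each group.

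PDGFA, the A chain of platelet-derived growth factor, read 7.02 and 7.01 in the arrays labelled H1.3, against 7.64 and 7.10 in the vector arrays. Only vector replicate 1 stood well above the others, and the difference of -0.36 was -0.09 without it and -0.62 without vector replicate 2. RAC1, which drives actin assembly at the cell edge, read 10.85 and 10.96 against 11.14 and 11.13, and its 3 clusters differed by -0.23, -0.23 and -0.23. EIF2AK1, the heme-regulated kinase of eIF2 alpha, read 10.16 and 10.39 against 10.56 and 10.53, and its groups did not overlap. CYTH3, an exchange factor for ARF GTPases, read 9.26 and 9.89 against 9.70 and 10.37, so the replicates of each group lay further apart than the group means, which differed by -0.46. GNA12, a G protein alpha subunit, and DAGLB, a lipase that makes an endocannabinoid, differed by -0.13 and -0.25, and IQCE, a ciliary protein of Hedgehog signalling, by -0.14.

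AHR, the receptor that turns on xenobiotic metabolism genes, was the signalling member that was not lower. It read 7.63 and 7.79 in the arrays labelled H1.3, against 7.99 and 7.04 in the vector arrays. The arrays labelled H1.3 lay between the vector arrays, and the difference of 0.20 was 0.67 without vector replicate 1 and -0.28 without vector replicate 2.

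Transcription and chromatin genes were the most mixed large group, with 6 of 10 lower and a median of -0.14. CDCA7L, a MYC-interacting nuclear protein, read 8.43 and 8.72 in the arrays labelled H1.3, against 9.56 and 9.43 in the vector arrays. The difference of -0.92 ± 0.14 (SE) came close to the threshold without passing (limma adjusted p 0.0530). RBAK, a zinc finger repressor that binds RB1, read 7.60 and 7.70 against 8.25 and 8.0, a difference of -0.48 ± 0.13. Its groups were separate, as were those of PHF14 (-0.31) and FOXK1 (-0.20). Those of the zinc finger gene SP4 (-0.16) and of the brightest TNRC18 cluster (-0.12) overlapped. The other clusters of TNRC18 differed by -0.255 and -0.22 with separate groups, and by -0.04 with overlapping ones.

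The remaining 4 transcription and chromatin members were higher. HDAC9, a class IIa histone deacetylase, read 7.17 and 7.10 in the arrays labelled H1.3, against 6.81 and 6.51 in the vector arrays, a difference of 0.48 ± 0.14 (SE). MACC1, a regulator of the MET receptor gene, read 10.97 and 10.89 against 10.39 and 10.61, a difference of 0.43 ± 0.13. Both genes are close together in the member order, their groups were separate, and neither passed (adjusted p 0.221 and 0.228). ETV1, an ETS factor, and MEOX2, a homeobox factor, differed by 0.17 and 0.11 at levels under the median of the array, and the groups of MEOX2 overlapped.

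Of the 5 members with roles in actin, adhesion and motility, 3 were lower, with a median of -0.08. ACTB, or beta-actin, read 12.09 and 12.06 in the arrays labelled H1.3, against 12.05 and 11.93 in the vector arrays. That is a difference of 0.09 ± 0.12 (SE), under the spread of the vector replicates, although the arrays did not overlap. FSCN1, which bundles actin in protrusions, read 7.87 and 7.85 against 8.10 and 8.16, a difference of -0.27 ± 0.11. SDK1, an adhesion molecule of the immunoglobulin superfamily, read 6.39 and 6.35 against 6.79 and 6.89, a difference of -0.47 ± 0.12. FSCN1 and SDK1 were each lower by more than the gap between replicates. SCIN, an actin-severing protein, was higher by 0.27 at a level near 4, and MICALL2, a Rab-binding protein of cell junctions, differed by -0.08 with overlapping groups. ACTB has many processed pseudogenes, so its signal may be shared.

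All 3 members with roles in genome maintenance and mitosis were lower. PMS2, a mismatch repair protein, read 8.30 and 8.56 in the arrays labelled H1.3, against 8.85 and 8.96 in the vector arrays, a difference of -0.48 ± 0.13 (SE). NUDT1, which clears oxidised nucleotides, read 7.45 and 7.51 against 7.93 and 7.78, a difference of -0.38 ± 0.12. MAD1L1, a spindle checkpoint protein, read 7.63 and 7.47 against 7.83 and 7.73. The groups were separate for each gene. PMS2 has many pseudogene copies, and the 8 clusters shared between them and PMS2 differed by -0.36 to -0.14, so the value of PMS2 itself is uncertain.

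For RNA processing and translation, 4 of the 5 members were lower, with a median of -0.31. EIF3B, a scaffold subunit of the translation initiation factor eIF3, read 9.71 and 9.60 in the arrays labelled H1.3, against 10.10 and 10.04 in the vector arrays, a difference of -0.42 ± 0.12 (SE). INTS1, a subunit of the Integrator complex that processes small nuclear RNAs, read 8.02 and 7.96 against 8.30 and 8.30. BZW2, a regulator of start codon choice, read 8.21 and 8.41 against 8.88 and 8.67, a difference of -0.47 ± 0.14. These 3 genes showed separate groups. TRA2A, a splicing factor, differed by -0.21 on its brighter cluster and -0.15 on the other. IGF2BP3, an oncofetal RNA-binding protein, was the member that was not lower. It read 9.49 and 9.63 against 9.41 and 9.42, a difference of 0.15 ± 0.12 with separate groups.

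The secretory, membrane and lysosomal members had the lowest median of the groups with 10 genes, at -0.45, with 9 of 10 lower and GPNMB higher. TMEM106B, a lysosomal membrane protein, read 8.55 and 8.71 in the arrays labelled H1.3, against 9.53 and 8.98 in the vector arrays. The difference of -0.63 ± 0.19 (SE) was -0.35 without vector replicate 1 and -0.90 without vector replicate 2. TSPAN13, a tetraspanin, showed the same order of arrays, with 8.79 and 8.97 against 9.64 and 9.17. TTYH3, a tweety family membrane protein, read 7.67 and 8.03 against 8.15 and 8.51, so the groups were separate but each replicate pair was spread.

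AGR2, a disulfide isomerase of mucus-secreting cells, read 5.34 and 5.24 in the arrays labelled H1.3, against 6.32 and 5.33 in the vector arrays. Vector replicate 1 alone was high, and the difference of -0.54 was -0.04 without it. OSBPL3, an oxysterol-binding protein relative, read 7.30 and 7.30 against 7.98 and 7.56, and was lower on both arrays labelled H1.3. WIPI2, an autophagosome factor, SNX13, a sorting nexin, and ICA1, a protein of secretory granules, differed by -0.22, -0.38 and -0.42 with separate groups. CHST12, a chondroitin sulfotransferase, differed by -0.10 with overlapping groups.

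Of the members concerned with protein quality and mitochondria, all 3 measured on their own clusters were lower. KLHL7, a substrate adaptor of a cullin ubiquitin ligase, read 7.20 and 7.54 in the arrays labelled H1.3, against 7.78 and 7.66 in the vector arrays. RNF216, a ubiquitin ligase, read 7.24 and 7.46 against 7.88 and 7.75, a difference of -0.47 ± 0.13 (SE). PSMG3, a proteasome assembly chaperone, read 8.12 and 8.37 against 8.56 and 8.54. The groups were separate for all 3 genes. RNF216 has a pseudogene copy on the same arm, with which its signal may be shared. The cluster shared by TOMM7, a subunit of the mitochondrial import channel, read 7.05 and 7.40 against 7.60 and 7.42, with H1.3 replicate 2 close to vector replicate 2.

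Among the other members, FAM221A showed the largest difference below 0 and STK31 almost none. FAM221A, whose function is little known, read 4.71 and 5.06 in the arrays labelled H1.3, against 6.60 and 6.48 in the vector arrays. It fell by 1.66 on the log2 scale, with an SE of 0.15 (limma adjusted p 0.0118). All its values lay below the median level of the array and were not shown to be above background, so no fold is given. The fits on 3 arrays gave -1.83 to -1.48 without a call. With all 4 arrays the call was also lost with all transcript clusters (limma adjusted p 0.116), with the replicate block (0.139) and without moderation (0.610). ANKMY2 differed by -0.43 with separate groups, GLCCI1 by -0.12 with overlapping ones, and STK31, a gene of male germ cells, by 0.09.

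**Figure D3:**
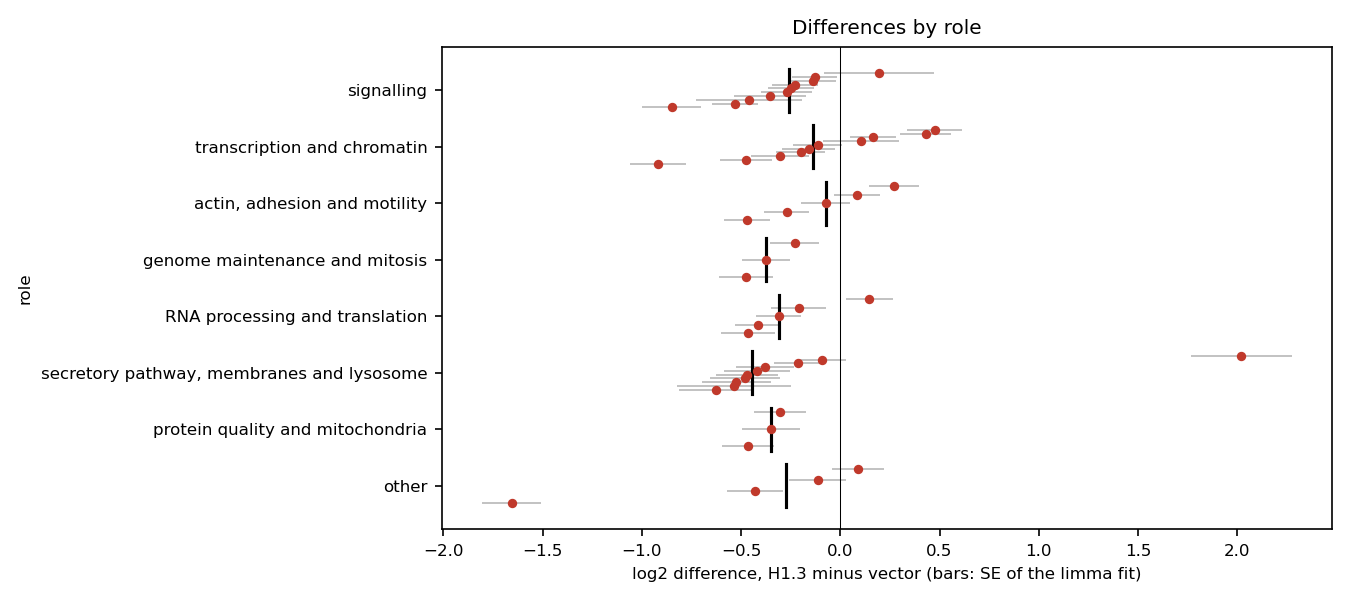
Log2 difference of each of the 50 members (arrays labelled H1.3 minus vector arrays) by role, with the SE of the limma fit as bars and the median of each group as a black line. Each group median lies below 0, from -0.45 for secretory, membrane and lysosomal genes to -0.08 for actin, adhesion and motility genes. GPNMB stands alone at 2.02 and FAM221A at -1.66.

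GPNMB was the exception in size as well as direction. It read 9.37 and 10.18 in the arrays labelled H1.3, against 7.61 and 7.90 in the vector arrays. The groups were wide apart, although the arrays labelled H1.3 differed from each other by 0.81. GPNMB rose by 2.02 ± 0.25 (SE) on the log2 scale, or 4.06-fold (limma adjusted p 0.0337), and over the 4 pairs of arrays its difference ran from 1.47 to 2.57. The fits on 3 arrays gave 1.61 to 2.42, none of them called. With all 4 arrays the call was also lost, at the same difference, with an intensity trend and robust moderation (limma adjusted p 0.0594), with dim clusters dropped (0.0625), with the replicate block (0.124), with all transcript clusters (0.202) and without moderation (0.628).

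The genes next to GPNMB did not read higher with it. NUP42, a nucleoporin, and MALSU1, a factor of mitochondrial ribosome assembly, are the measured genes on either side of it and are not members. NUP42 read 7.60 and 7.94 in the arrays labelled H1.3, against 8.0 and 7.90 in the vector arrays, with overlapping groups. MALSU1 read 8.63 and 8.83 against 9.21 and 9.11, a difference of -0.43 with separate groups. Of the members with a cluster of their own, the nearest on the telomere side were KLHL7 (-0.35), RAPGEF5 (-0.85), CDCA7L (-0.92), SP4 (-0.16) and MACC1 (0.43). On the other side they were IGF2BP3 (0.15), TRA2A (-0.21), FAM221A (-1.66), STK31 (0.09) and OSBPL3 (-0.47). The largest fall and the largest rise of the list thus lay within 3 members of each other. Without GPNMB, 40 of 49 members were lower and the median was -0.31.

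**Figure D4:**
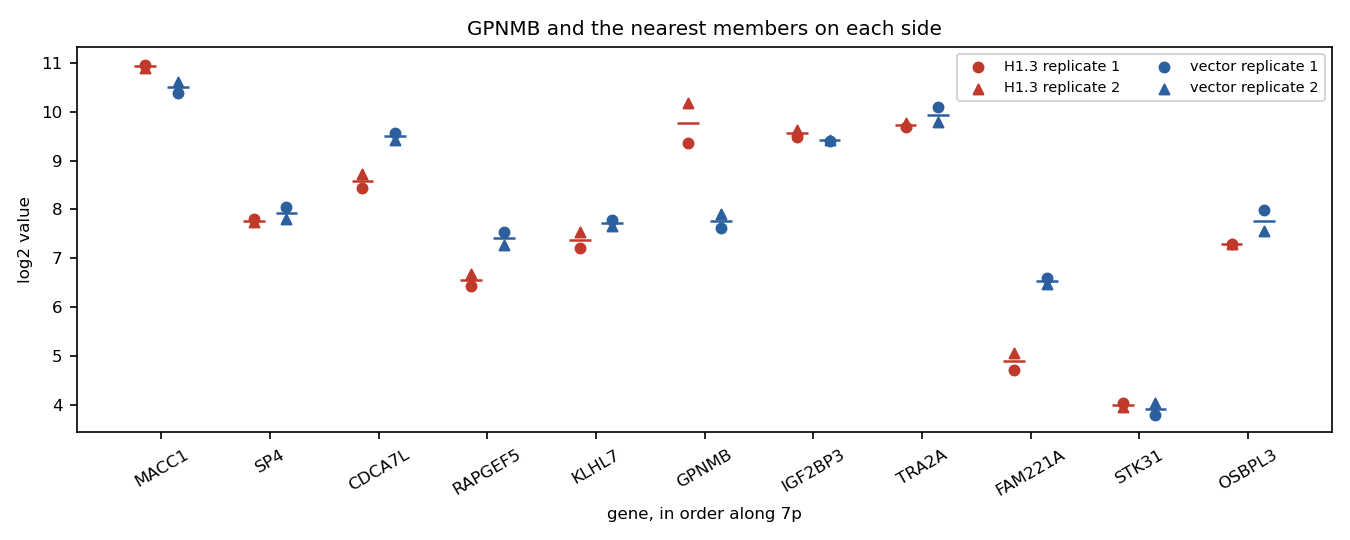
Log2 values of GPNMB and, on each side, the 5 nearest members with a cluster of their own, in order along 7p, on the arrays labelled H1.3 (red) and the vector arrays (blue), with group means as short lines. GPNMB read 9.37 and 10.18 in the arrays labelled H1.3, against 7.61 and 7.90 in the vector arrays, while CDCA7L, RAPGEF5 and FAM221A lie lower in the arrays labelled H1.3.

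Read in order along the arm, lower members made up most of each block of 10 but 1. All of the first 10 members, PDGFA to IQCE, were lower, with a median of -0.31. The next 10, TTYH3 to RNF216, had a median of -0.24 with ACTB as the exception, and PMS2 to SCIN one of -0.29 with SCIN as the exception. From ETV1 to MACC1 the members split, 5 lower and 5 higher, with a median of -0.14. Over the pairs of arrays the median of that block ran from -0.495 to 0.125. Of its higher members, ETV1 and MEOX2 lay below the median level, and AHR and MEOX2 changed sign when 1 array was left out. HDAC9 and MACC1 did neither. The last 10, SP4 to OSBPL3, had a median of -0.28 and the widest range, from FAM221A to GPNMB.

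Most members that were lower lay at or above the median level. The level of a gene is its mean over all 4 arrays, so a gene near the cut can pass through 1 group only. RAPGEF5 passed by its vector mean (7.405, against 6.555 in the arrays labelled H1.3). HDAC9 passed by its mean in the arrays labelled H1.3 (7.135, against 6.66 in the vector arrays). Of the 43 members at or above the median level, 37 were lower, with a median of -0.31, beside 50.9% of all genes at or above it. Of the 7 below it, 3 were lower (SDK1, AGR2 and FAM221A), with a median of 0.09, beside 39.9% of all genes below it. Across the 50 members the difference had no linear relation to the mean level, with a Pearson's r of 0.04, and -0.01 without GPNMB. Such an r does not show the split at the median level given above, which rests on 7 members below it. All 50 members share the same 4 arrays.

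Genes of the same stretch outside the list were mostly lower too where they were well expressed. Of 37 other genes between PDGFA and OSBPL3 at or above the median level, 31 were lower, with a median of -0.27, whereas of 35 below it 12 were lower, with a median of 0.06. The lowest of the 37 were GSDME, a pore-forming gasdermin, at -0.71, SUN1, which links the nuclear envelope to the cytoskeleton, at -0.63, and MRM2, a methyltransferase of mitochondrial ribosomal RNA, at -0.57. SUN1 was nearly constant within groups, at 8.65 and 8.65 in the arrays labelled H1.3, against 9.29 and 9.26 in the vector arrays. The highest were SLC29A4 at 0.06, FBXL18 at 0.11 and CLK2P1 at 0.18. GSDME and RNF216P1, both lower, reached the median level by the mean of the vector arrays only.

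The stretch had no sharp end at OSBPL3. Next to PDGFA on the telomere side, FAM20C differed by -0.10, and just beyond OSBPL3 the cytochrome c gene CYCS differed by -0.35. Of 72 genes at or above the median level in the rest of 7p, 57 were lower, with a median of -0.25 and both arrays labelled H1.3 below both vector arrays for 45, beside 25.6% of all genes at or above it. EGFR, the epidermal growth factor receptor gene, read 7.75 and 8.18 in the arrays labelled H1.3, against 8.23 and 8.80 in the vector arrays, and CHCHD2, a mitochondrial regulator, read 10.13 and 10.47 against 11.21 and 10.79. Their groups were separate, with differences of -0.55 and -0.70. IGFBP3 differed by -0.57, PSMA2 by -0.39, CCT6A by -0.28, HNRNPA2B1 by -0.19, CBX3 by -0.18 and INHBA by -0.11, and the adjusted p of these 8 genes ran from 0.169 to 0.806 (limma).

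On the long arm, 7q, 126 of 279 genes at or above the median level were lower, with a median of 0.02. Over the whole of 7p the count was 125 of 152, with a median of -0.27. The running median of 15 genes at or above the median level stayed between -0.38 and -0.10 up to OSBPL3. It was still -0.23 at ASL, on 7q but with a window that reached into 7p, and 0.04 at AUTS2. From ERV3-1 to TYW1, at the start of 7q, all genes at or above the median level were lower except TPST1 (0.005). GUSB, SBDS and TYW1 differed by -0.35, -0.38 and -0.32. Other chromosomes had low medians as well, -0.24 for 331 such genes of chromosome 8, -0.18 for 562 of chromosome 11 and -0.15 for 104 of chromosome 21. The difference between the arms was not tested, since the list was chosen by the same contrast.

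**Figure D5:**
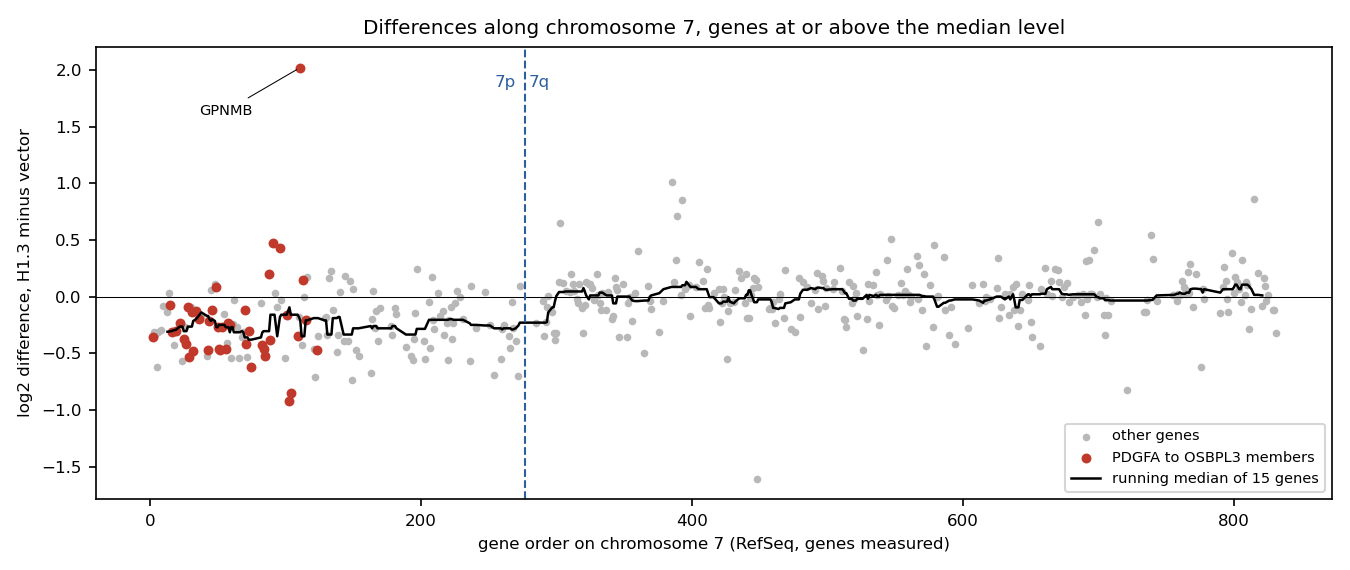
Log2 difference (arrays labelled H1.3 minus vector arrays) of each measured gene of chromosome 7 at or above the median level, in gene order, with members in red, other genes in grey and the running median of 15 genes in black. The dashed line separates 7p from 7q. The median is -0.27 for 152 genes of 7p and 0.02 for 279 genes of 7q, and GPNMB lies at 2.02.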

How the data were processed

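Transcript levels were measured on 4 one-colour Affymetrix arrays. The authors deposited log2 values for 33297 transcript clusters, rounded to 2 decimals. Per the submitters' processing notes, the tools were RMA and Affymetrix Expression Console, with versions and build not given in the sources used here. The series text names an exon array, but the identifiers match a gene array's annotation table. Probe intensities were not used here, and the number of arrays limits precision (median SE of a difference 0.13).

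Gene names came from the platform annotation, updated by gene identifier to RefSeq (GRCh38.p14). Of the clusters, 19460 had 1 symbol and 1754 several. A gene is represented by its single-symbol cluster of highest mean. Gene order followed RefSeq starts, with 7p ending at ZNF716; PRSS3P2 was not placed, because its RefSeq position disagrees with the array's probe order, a choice made after the data were seen.

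limma 3.58.1 in R 4.3.3 (lmFit, eBayes, two-sided) compared the groups over 21214 annotated clusters, with Benjamini-Hochberg adjustment and a threshold of 0.05. The fit was tested on simulated data. Medians, counts and the promoter search were computed in Python 3.11.15.

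All 54 members could be named, and of other genes those of a fixed list on 7p and the 3 lowest and 3 highest in the span. The genes named on 7q were picked after their values were seen. The members, roles and lists were chosen with earlier results of these data known. Alternatives changed moderation, scaling, filter, clusters, threshold and pairing, or left out 1 array.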

Additional observations from a re-analysis of the deposited data

How the results depend on the processing

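The members' median difference of -0.29 and the counts of 40 lower and 33 lower with separate groups kept their direction in every alternative run. The median was -0.26 after a second quantile normalization and -0.31 with dim clusters dropped, and -0.33 to -0.22 when each array was left out in turn. No member changed sign under either alternative scaling. The count of members called lower, 1 as reported, was 3 with an intensity trend and robust moderation and 2 after the second quantile normalization. At an adjusted p under 0.10 it was 3, and it was 0 without moderation and 0 with all transcript clusters. With dim clusters dropped (those below the median level) it was also 0. FAM221A, the member called, lies below that level and so was not tested there. The count called higher, 1, was 0 with the trend, without moderation, without dim clusters, with all clusters and with each array left out (0 to 0). GPNMB stayed at 2.02 in the settings that keep the 4 arrays and their scaling, and lost its call with the trend (limma adjusted p 0.0594), without moderation (0.628), with dim clusters dropped (0.0625) and with all clusters (0.202); leaving out each array gave 1.61 to 2.42. Apart from the 0.10 threshold, the share of all genes called in these runs, or in the replicate block fit, is not given here. The counts called therefore do not show a change particular to the members. The cause of these shifts was not tested.

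In the replicate block fit, 0 members were called lower and 0 higher, and GPNMB stayed at 2.02 (limma adjusted p 0.124). Replicate 2 minus replicate 1 correlated at only 0.06 between the groups, and no label ties equal numbers to a batch, so the arrays were treated as unpaired.

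With 2 arrays a group, a two-sided exact permutation test cannot go below 0.333. DNA copy number, chromatin and single probes were not measured or used here, and values of low genes are compressed by background on an array.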

Other observations

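Both genes below lie in the stretch, are not members and were picked out after their values were seen; neither passed limma. DNAH11, an axonemal dynein heavy chain gene, read 5.13 and 4.89 in the arrays labelled H1.3, against 6.36 and 5.55 in the vector arrays, a difference of -0.95 (adjusted p 0.178). IL6, the interleukin 6 gene, read 5.49 and 5.25 in the arrays labelled H1.3, against 4.54 and 4.81 in the vector arrays, a difference of 0.70 (adjusted p 0.111). IL6 lies between RAPGEF5 and KLHL7, near GPNMB in gene order, and its groups were separate, at levels under the median of the array.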
